A study of Mus musculus with 2 samples.

Results

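The genes described here carry glucose across the membranes of kidney tubule cells or make glucose inside them. They are 7: the sodium-glucose cotransporters Slc5a2 and Slc5a1, the glucose carriers Slc2a2 and Slc2a1, and the gluconeogenesis enzymes Fbp1, Pck1 and G6pc. They were chosen by function. All are among the 8930 genes listed for both libraries of the study, under the lower-case names slc5a2, slc5a1, slc2a2, slc2a1, fbp1, pck1 and g6pc. Each was read in 10 cell clusters per library defined by the authors, and in cells in which at least 3 of 4 proximal tubule genes (Slc34a1, Lrp2, Spp2 and Miox) were detected. These cells are called the proximal gate. They numbered 673 of 9071 cells in the control (7.42%, 95% Clopper-Pearson interval 6.89 to 7.98) and 387 of 5494 cells of the exposed library (7.04%, 6.38 to 7.75).

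Single-cell RNA was measured in newborn mouse kidney, at postnatal day 2 in strain C57BL/6J. There was 1 library from a control and 1 from a group exposed to maternal diabetes, labelled DM_Exp. The design text names male mice (as worded, for the exposed group), and how the maternal diabetes was produced is not given in it. It names 1 kidney a group and also pooled cells, so the number of animals behind a library is not settled. Cells were freed with trypsin and frozen before 10x Genomics 3' libraries were made, in which each captured transcript carries a unique molecular identifier (UMI). With 1 library a group there is no replicate check, no test of the exposure is possible, and a difference between the libraries cannot be told apart from a difference between the samples or their preparation.

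Glucose filtered by the glomerulus is taken back in the proximal tubule. On the lumen side Slc5a2 (SGLT2) does most of this work in the early segment and Slc5a1 (SGLT1) takes up the remainder further down, and Slc2a2 (GLUT2) and Slc2a1 (GLUT1) let glucose out on the blood side. Proximal cells also make glucose from lactate and glutamine: Pck1 turns oxaloacetate into phosphoenolpyruvate, Fbp1 removes a phosphate from fructose 1,6-bisphosphate, and G6pc frees glucose from glucose 6-phosphate.

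In the GENCODE annotation of mm10 the genes are all protein-coding and lie on separate chromosomes. Slc5a2 is at chr7:128265657-128272430 on the plus strand and Slc5a1 at chr5:33104219-33162870 on the plus strand. Slc2a2 is at chr3:28697903-28731359 and Slc2a1 at chr4:119108711-119137983, both on the plus strand. Fbp1 is at chr13:62864753-62888282 on the minus strand, Pck1 at chr2:173153048-173159273 on the plus strand and G6pc at chr11:101367561-101377903 on the plus strand.

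Among the 6 of 7 genes with a promoter entry in RefSeq (GRCm38.p6), Pck1 and G6pc shared the 2 short motifs searched for, and the other 4 windows lacked them. The 250 bases before each start were searched on both strands for TTACGT (reverse ACGTAA) and for CCAAAG (reverse CTTTGG, part of an HNF4 site). TTACGT is a variant of the core of a cAMP response element and is called the core here. Other forms of the core, its consensus among them, were not searched. The lack of a match in the other 4 windows therefore covers these letters only. Pck1 held 1 match to each, 93 and 108 bases before its start. G6pc held 1 match to the HNF4 part site at 73 bases, and 2 to the cAMP response element core at 162 and 160 bases, which overlap as a palindrome. Slc5a1, Slc2a2, Slc2a1 and Fbp1 held neither. Of all 32851 RefSeq windows of this length, 2.40% held the cAMP response element core and 16.6% the HNF4 part site. Distances are from the RefSeq start. A match describes letters in the window, and its use in these cells was not measured. The stretches of these 2 windows up to the first base of the GENCODE gene are shown because this pair shares the motifs, which are in capitals, 5′ to 3′ on the plus strand of GRCm38.p6, at chr2:173152823-173153048 and chr11:101367466-101367561. The RefSeq and GENCODE starts differ: the GENCODE gene begins 25 bases before the RefSeq start for Pck1 and 155 bases before it for G6pc. The HNF4 part site of G6pc therefore lies inside the GENCODE gene, past the stretch shown, and its cAMP response element match ends at the first base of that gene.
Pck1: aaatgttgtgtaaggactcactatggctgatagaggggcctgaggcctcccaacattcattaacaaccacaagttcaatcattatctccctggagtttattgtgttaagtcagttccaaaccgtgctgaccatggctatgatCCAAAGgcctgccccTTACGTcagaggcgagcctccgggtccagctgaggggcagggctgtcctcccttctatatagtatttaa
G6pc: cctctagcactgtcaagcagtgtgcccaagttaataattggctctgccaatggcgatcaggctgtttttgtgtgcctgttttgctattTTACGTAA

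The count tables hold 39442253 UMIs in the control library and 28381167 in the exposed one, with a median of 3434 and 4230 a cell. Genes are counted near their 3' end, so levels are compared between cells for 1 gene at a time and never between genes. Levels are given as CPM, a gene's UMIs scaled to a common total of the UMIs of all shared genes in the same cells, with exact Poisson intervals. Intervals cover counting error only. They leave out the spread between cells, so that a gene with most of its UMIs in a few cells has intervals that are too narrow. Gate cells had a median of 4855 and 5077 UMIs and of 16.0% and 17.3% mitochondrial UMIs. Of them, 237 control (35.2%) and 160 exposed cells (41.3%) were over 25%. The libraries share 14 cell barcodes.

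The gate was proximal in its markers but not uniform. All 14 proximal tubule markers were detected in control cluster 6 and exposed cluster 9, called here the main proximal cluster of each library. Cluster 7 of each library held 13 and 12 of the 14, with a median of 60.4% and 62.7% mitochondrial UMIs, and these are called the high-mitochondrial proximal clusters. Of the gate's UMIs, 73.2% in control cells and 53.2% in exposed cells came from the main proximal cluster. The high-mitochondrial proximal cluster gave 7.0% and 12.7%. Cluster 2 of each library, led by early nephron and nephron progenitor genes such as Wnt4 and Cited1, gave 15.2% and 30.2%. Control cluster 2 also held ureteric bud and collecting duct markers such as Aqp2, and exposed cluster 2 was not named for them. The 2 gates thus differ in their mix of clusters, and ratios are given for the gate and within clusters. Markers of 11 other cell types were also met by 75 control gate cells (11.1%) and 28 exposed gate cells (7.24%), and leaving these out kept each gate ratio of the 7 genes on the same side of 1.

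By CPM, 6 of the 7 genes were highest in a proximal tubule-like cluster in both libraries, and Slc2a1 was highest in cluster 5. CPM counts mitochondrial UMIs in the total, so it is low where their share is high. Levels are therefore also given as nuclear CPM, over UMIs of genes that are not mitochondrially encoded. On that scale the unnamed exposed cluster 4, led by mitochondrial genes, was highest for Slc5a2 and Fbp1 among exposed clusters, and exposed cluster 8 for Slc2a1, at 113 nuclear CPM (70.8 to 171, 22 UMIs) against 92 (80.6 to 104) in cluster 5. The gate held 86.4% of all Slc5a2 UMIs in control cells and 85.6% in exposed cells. For Slc5a1 it held 76.7% and 73.0%, and for Slc2a2 87.8% and 88.1%. Its share was 93.7% and 91.8% for Fbp1, 87.9% and 89.4% for Pck1, and 94.1% and 97.9% for G6pc. Only 6.68% and 4.37% of Slc2a1 UMIs lay in the gate.

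**Figure D1:**
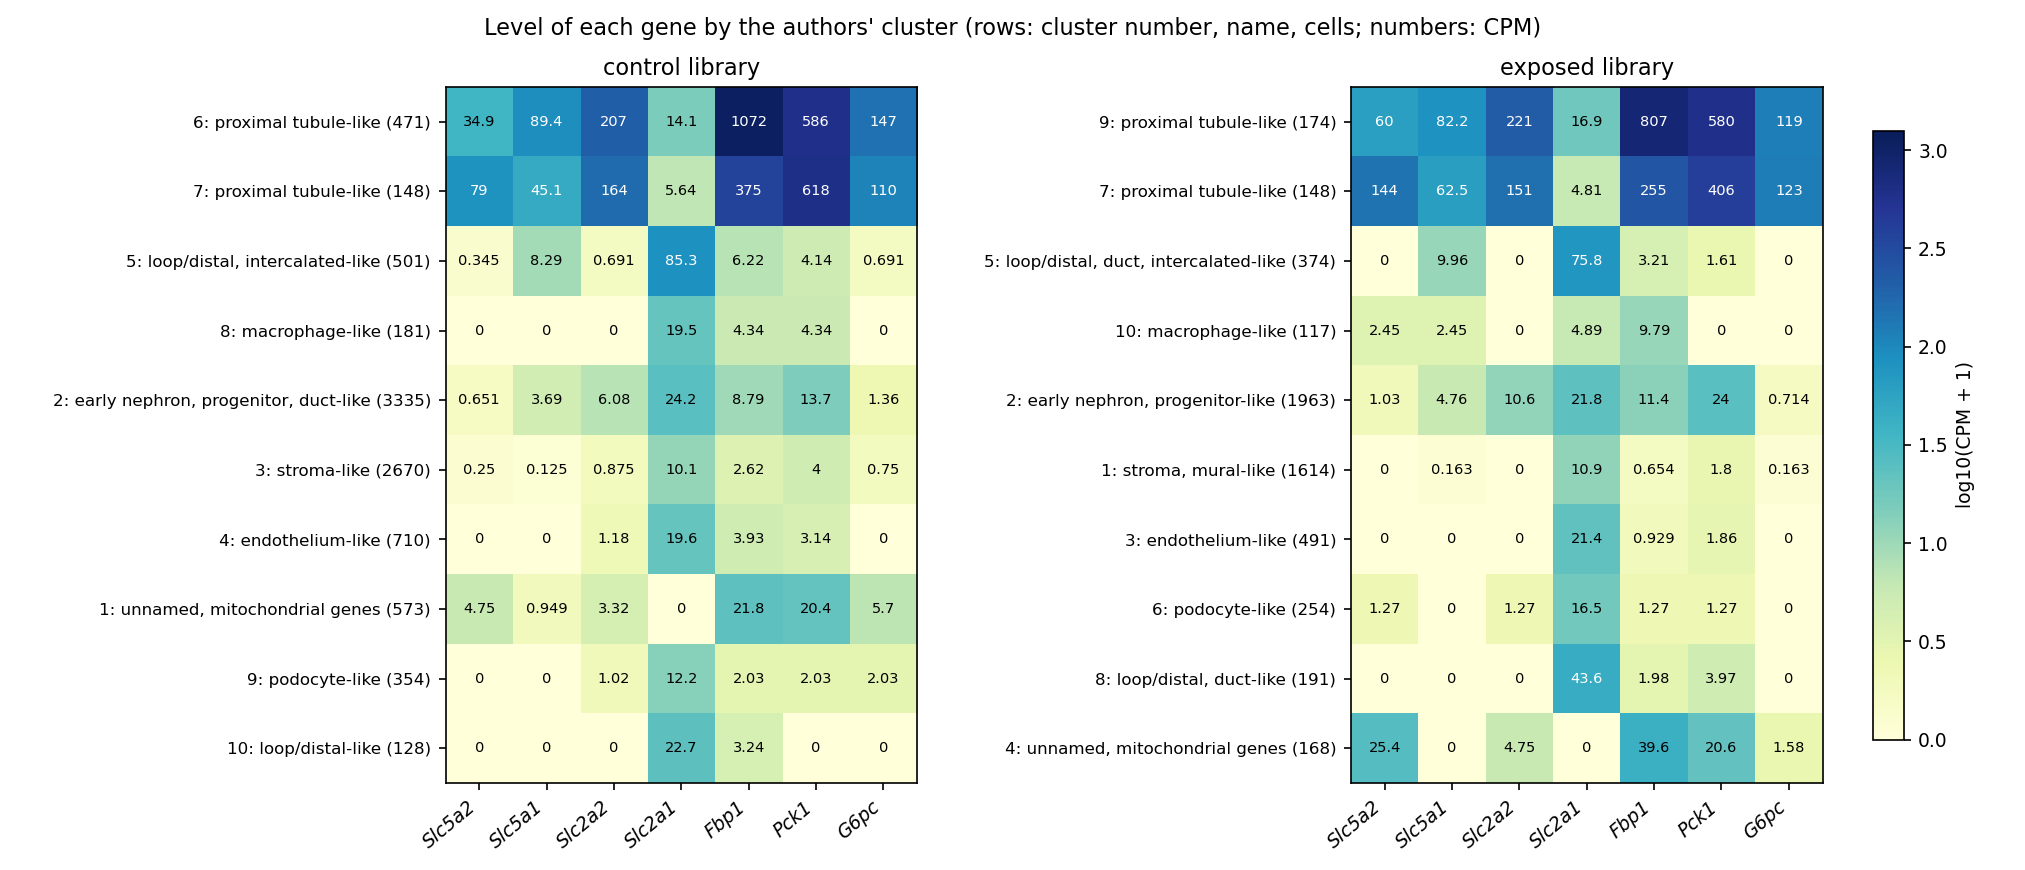
CPM of each gene (columns) in each of the authors' clusters (rows, numbered separately in each library and named from marker genes, with their cell number); colour gives log10(CPM + 1), to be compared down a column, with mitochondrial UMIs in the total. On this scale each gene but Slc2a1 is highest in the top pair of rows, and Slc2a1 is highest in cluster 5 of both libraries, at 85.3 and 75.8 CPM.

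Slc5a2 was higher in the high-mitochondrial proximal cluster than in the main one in both libraries and on both scales. In the control it stood at 34.9 CPM (28.7 to 42.2) in the main cluster and at 79.0 (52.5 to 114) in the high-mitochondrial cluster. In the exposed library the values were 60.0 CPM (48.2 to 73.8) and 144 (110 to 186). As nuclear CPM the control clusters held 41.2 (33.9 to 49.7) and 200.5 (133 to 290), and the exposed ones 69.7 (56.0 to 85.8) and 398 (304 to 513). The intervals of the 2 clusters do not overlap in any of these pairs.

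The unnamed clusters led by mitochondrial genes held few UMIs of Slc5a2, 10 in control cluster 1 and 16 in exposed cluster 4. Their level was 4.75 and 25.4 CPM, and 138 (66 to 253) and 1007 (576 to 1636) nuclear CPM, since nearly all of their UMIs are mitochondrial (medians of 97.9% and 98%). No other cluster held more than 2.45 CPM of Slc5a2. The control endothelium-like cluster 4 and the exposed endothelium-like cluster 3 held 0 UMIs of it.

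Slc5a1 did not differ between the proximal clusters by more than its nuclear intervals. It was at 89.4 CPM (79.3 to 101) in the main and 45.1 (25.8 to 73.3) in the high-mitochondrial cluster of the control, and at 82.2 (68.3 to 98.2) and 62.5 (40.8 to 91.6) in the exposed ones. As nuclear CPM the order turned, with 106 (93.5 to 119) and 115 (65.5 to 186) in control clusters and 95.6 (79.4 to 114) and 173 (113 to 253) in exposed ones. Cluster 5 had loop of Henle, distal tubule and intercalated markers, and in the exposed library also ureteric bud and collecting duct markers. Its Slc5a1 level was 8.29 CPM (5.31 to 12.3) in the control and 9.96 (6.77 to 14.1) in the exposed library. That is 9.27% and 12.1% of the main proximal level, while Fbp1 in the same cluster stood at 0.580% and 0.398% of its own main proximal level and Pck1 at 0.708% and 0.277%.

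The order of the 2 proximal clusters depended on the scale for Slc2a2 in both libraries, for Pck1 in the exposed library and for G6pc in the control. Slc2a2 was at 207 CPM (192 to 224) in the main and 164 (124 to 212) in the high-mitochondrial cluster of the control, and at 221 (198 to 246) and 151 (116 to 194) in the exposed ones. As nuclear CPM it was the higher in the high-mitochondrial cluster, at 245 (226 to 264) and 415 (315 to 537) in control clusters and at 257 (230 to 286) and 418 (321 to 535) in exposed ones.

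Pck1 was at 586 CPM (559 to 613) and 618 (539 to 705) in the main and high-mitochondrial control clusters, and at 580 (542 to 620) and 406 (347 to 472) in the exposed ones. Its nuclear CPM was 691 (660 to 723) and 1568 (1367 to 1790) in control clusters, and 674 (629 to 720) and 1122 (959 to 1304) in exposed ones. Pck1 was thus higher in the high-mitochondrial cluster of both libraries on the nuclear scale, and lower in the exposed one by CPM.

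G6pc stood at 147 CPM (134 to 161) and 110 (78.2 to 150) in control clusters, and at 119 (102 to 138) and 123 (91.3 to 161) in exposed ones, with overlapping intervals. As nuclear CPM it was at 173 (158 to 190) and 279 (199 to 382) in control clusters and at 139 (119 to 161) and 339 (252 to 445) in exposed ones, higher in the high-mitochondrial cluster by more than its intervals.

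Fbp1 was lower in the high-mitochondrial cluster on both scales. It was at 1072 CPM (1036 to 1109) in the main and 375 (314 to 445) in the high-mitochondrial cluster of the control, and at 807 (762 to 854) and 255 (209 to 308) in the exposed ones. As nuclear CPM it was at 1265 (1223 to 1309) and 952 (797 to 1128) in control clusters and at 938 (885 to 992) and 704 (576 to 851) in exposed ones. Intervals did not overlap in any of these Fbp1 pairs. In exposed cluster 4, led by mitochondrial genes, 25 UMIs of Fbp1 gave 1574 nuclear CPM (1019 to 2324).

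Cells with UMIs of both cotransporters were few. In the control gate 2 of 58 cells with Slc5a2 also held Slc5a1 (3.45%, Clopper-Pearson 0.420 to 11.9), against 168 of 615 cells without Slc5a2 (27.3%, 23.8 to 31.0). In the exposed gate it was 2 of 67 (2.99%, 0.364 to 10.4) against 85 of 320 (26.6%, 21.8 to 31.8). With each cell thinned to 2000 UMIs, 0 of 33 and 0 of 38 Slc5a2 cells held Slc5a1, against 13.4% and 12.3% of the rest. The share was thus low in both libraries and at matched depth. G6pc was instead found more often in gate cells with Slc5a2, in 67.2% of control cells with it (39 of 58) and 29.4% of those without. Among exposed gate cells the shares were 56.7% and 19.7%. Thinned, they were 39.4% against 14.9% in control cells and 28.9% against 12% in exposed cells.

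Gate cells with Slc5a2 alone (56 control and 65 exposed) and with Slc5a1 alone (168 and 85) were set beside lists of early and late proximal segment genes. The lists include other genes of the 7. Levels here are nuclear CPM. Of 12 early segment genes with at least 20 UMIs (Slc5a2 itself, which chose the cells, is left out, as is Slc5a1 below), 11 were higher in Slc5a2 cells in each library, with a median ratio of 2.17 in control cells and 2.38 in exposed cells. Of these genes, Slc34a1 is a marker by which the gate was picked. Without it 10 of 11 were higher in each library, with medians of 2.40 and 2.43. Of the late segment genes, 8 of 9 were lower in Slc5a2 cells of the control and 8 of 8 in those of the exposed library, with median ratios of 0.219 and 0.266. The ratio interval lay below 1 for 7 of these 9 and for 6 of these 8. Shares over all genes between the same cells are not given here, so how common such ratios are among all genes is not known.

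Slc5a12, a sodium-coupled lactate transporter of the early segment, was at 521 nuclear CPM in Slc5a2 cells and 9.39 in Slc5a1 cells of the control, and at 400 and 21.5 in exposed cells. Slc6a19, a neutral amino acid transporter, was at 190 and 23.5 in control cells and at 102 and 20.3 in exposed cells. Both were thus far higher in Slc5a2 cells. On the late list Slc22a13, an organic anion transporter, was at 5.85 and 237 nuclear CPM in control cells and at 10.5 and 155 in exposed cells. Slc7a13, an amino acid transporter, had 3 UMIs (8.78 nuclear CPM) in Slc5a2 cells and 160 nuclear CPM in Slc5a1 cells of the control. In the exposed library it had 0 UMIs in Slc5a2 cells and 82.4 nuclear CPM in Slc5a1 cells. The exceptions were Slc22a6, an organic anion transporter on the early list, and Slc3a1 on the late list. Slc22a6 had a ratio of 0.694 (0.571 to 0.839) in control cells and 0.963 (0.744 to 1.24) in exposed cells. Slc3a1 was at 1.02 (0.793 to 1.30) in control cells and 0.986 (0.693 to 1.38) in exposed cells.

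Of the 7 genes, Pck1, Fbp1 and Slc2a2 are on the early list and were higher in Slc5a2 cells. Pck1 was 2.40 times higher (2.11 to 2.72) in control cells and 2.30 times (1.96 to 2.69) in exposed cells. Fbp1 was 1.48 times higher (1.33 to 1.64) and 2.43 times (2.12 to 2.78), and Slc2a2 1.51 times (1.18 to 1.91) and 2.32 times (1.83 to 2.95). Slc2a1, on the late list, had 3 UMIs in Slc5a2 cells of either library, against 20 and 15 in the more numerous Slc5a1 cells. Its level was 8.78 and 18.8 nuclear CPM in control cells, a ratio of 0.467 (0.0889 to 1.58). In exposed cells it was 10.5 and 17.9, a ratio of 0.587 (0.109 to 2.08). Both intervals hold 1. Median mitochondrial UMIs were 21.1% in Slc5a2 cells and 12.8% in Slc5a1 cells of the control, and 31.6% and 10.7% in exposed cells, and the part of that share in these differences was not tested beyond the nuclear scale.

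**Figure D2:**
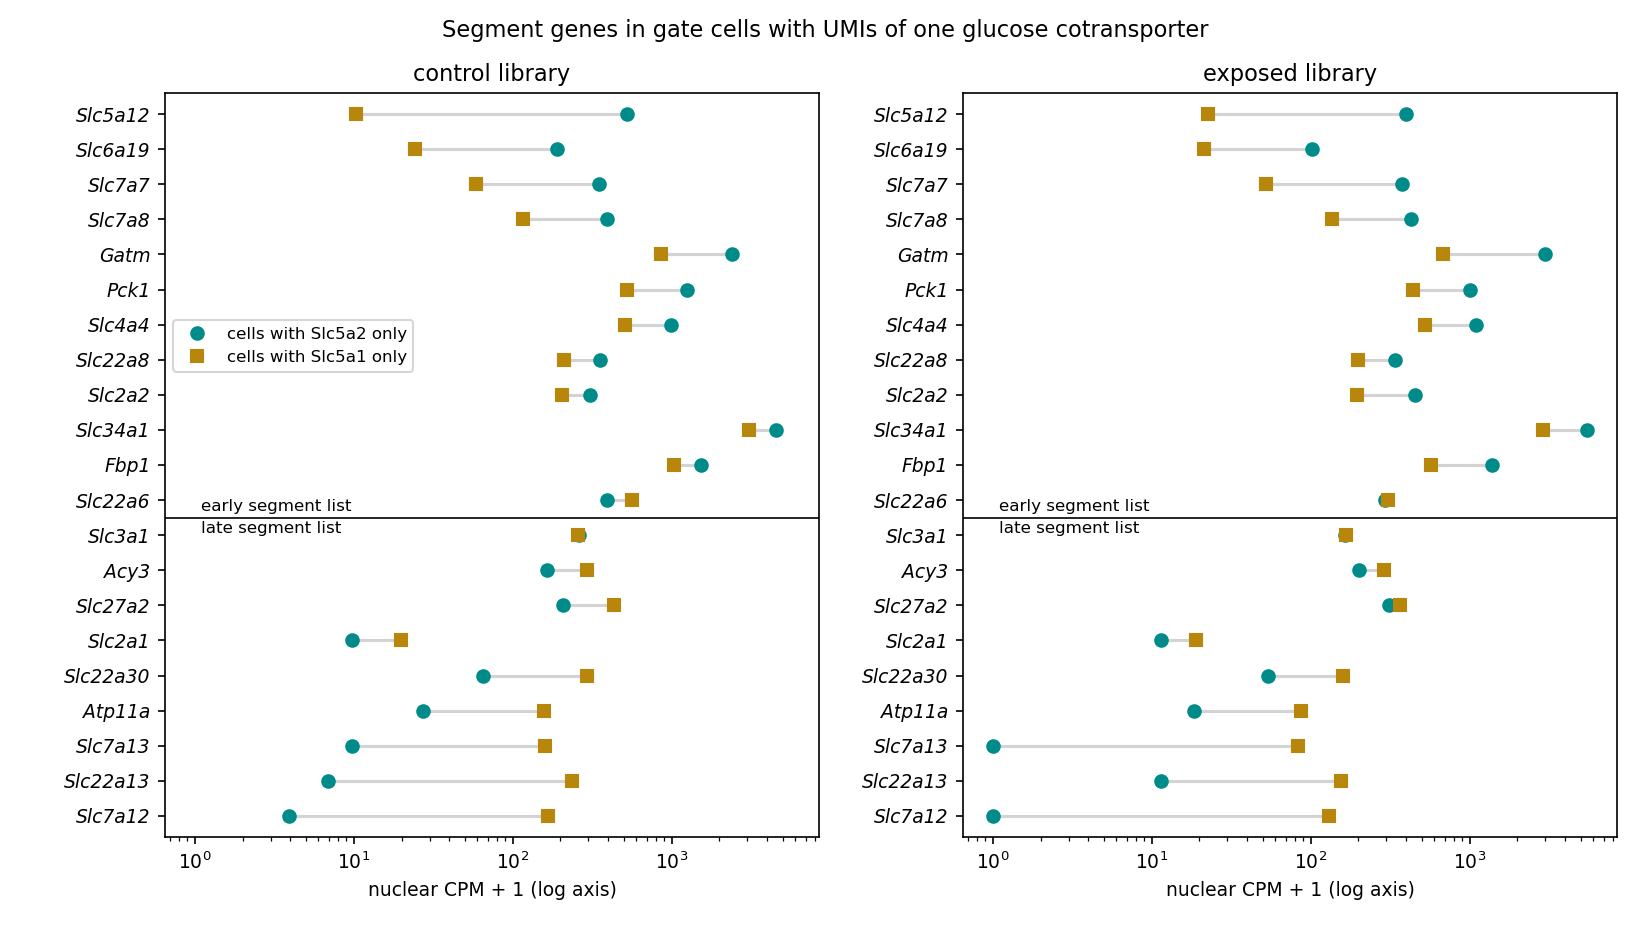
Nuclear CPM + 1 (log axis) of early and late proximal segment genes in gate cells with UMIs of Slc5a2 only (circles) or Slc5a1 only (squares), in each library. Circles lie to the right for 11 of the 12 early genes in each library and to the left for most late genes; values at 1 stand for 0 UMIs.

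Slc2a1 was spread over the distal nephron and other cell types. Cluster 5 held 85.3 CPM (75.0 to 96.6) with UMIs in 34.3% of its control cells, and 75.8 CPM (66.5 to 86.2) with UMIs in 36.9% of its exposed cells. To resolve that cluster, cells were picked by marker genes: at least 2 of 3 markers of 1 type and of no other type, with types and markers chosen after the clusters were seen. In the thick ascending limb gate (Slc12a1, Umod, Kcnj1; 303 and 218 cells) Slc2a1 was at 82.4 CPM (70.2 to 96.0) and 79.6 (66.5 to 94.6).

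The intercalated gate (Foxi1, Atp6v1g3, Atp6v0d2), acid-base cells of the collecting duct, held 85.4 CPM (62.3 to 114) in 110 control cells and 136 (99.0 to 182) in 55 exposed cells. Their ratio was 1.59 (1.03 to 2.46), on 45 UMIs in each library, found in 33 control and 19 exposed cells. The shares of cells with a UMI were 30% (21.6 to 39.5) and 34.5% (22.2 to 48.6), with overlapping intervals. Principal cells stood at 65.4 CPM (49.4 to 84.9) and 78.4 (57.6 to 104), and distal convoluted and connecting tubule cells at 38.3 (26.7 to 53.3) and 40.3 (24.3 to 63.0). Of the 10 gates with at least 20 Slc2a1 UMIs over both libraries, the intercalated gate was the one whose ratio interval left out 1.

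Below these came endothelium at 20.1 CPM (14.9 to 26.6) and 21.6 (15.7 to 28.8), proximal gate cells at 13.4 (9.75 to 17.9) and 12.3 (8.25 to 17.7), and stroma at 9.23 (6.96 to 12) and 12.1 (9.20 to 15.5). Thick ascending limb cells were above distal convoluted and connecting tubule cells by more than their Slc2a1 intervals in control cells, and the latter were above endothelium there. Thick ascending limb, intercalated and principal intervals overlap in control cells, while the exposed intercalated interval lies above that of the exposed thick ascending limb.

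Slc5a1 was also present in the thick ascending limb gate, the salt-absorbing limb of the loop of Henle. There it was at 20.1 CPM (14.4 to 27.4, 40 UMIs in 24 cells) in control cells and 15.4 (9.98 to 22.8, 25 UMIs in 15 cells) in exposed cells, 25% and 21.2% of its level in the proximal gate without cells of other gates. Fbp1 in the same cells stood at 0.426% and 0.566% of its proximal gate level and Pck1 at 0.538% and 0.50%. The intercalated, endothelium, podocyte, stroma, ureteric tip and macrophage gates held 0 Slc5a1 UMIs in both libraries, and each of the 4 remaining gates held at most 3. In the stroma gate of 1936 control cells, 0 UMIs allow up to 0.504 CPM. Of the Slc5a1 cells of the thick ascending limb gate, 2 of 24 control cells (8.33%) and 0 of 15 exposed cells had any of the 4 proximal gate markers, against 6.81% and 4.43% of its cells without Slc5a1. Their median depth was 9640 and 9619 UMIs against 4986 and 5749. The authors' doublet score was over 1 in 3 of these 24 control cells (12.5%), against 5.38% of those without Slc5a1. In the exposed library it was over 1 in 0% against 5.42%.

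**Figure D3:**
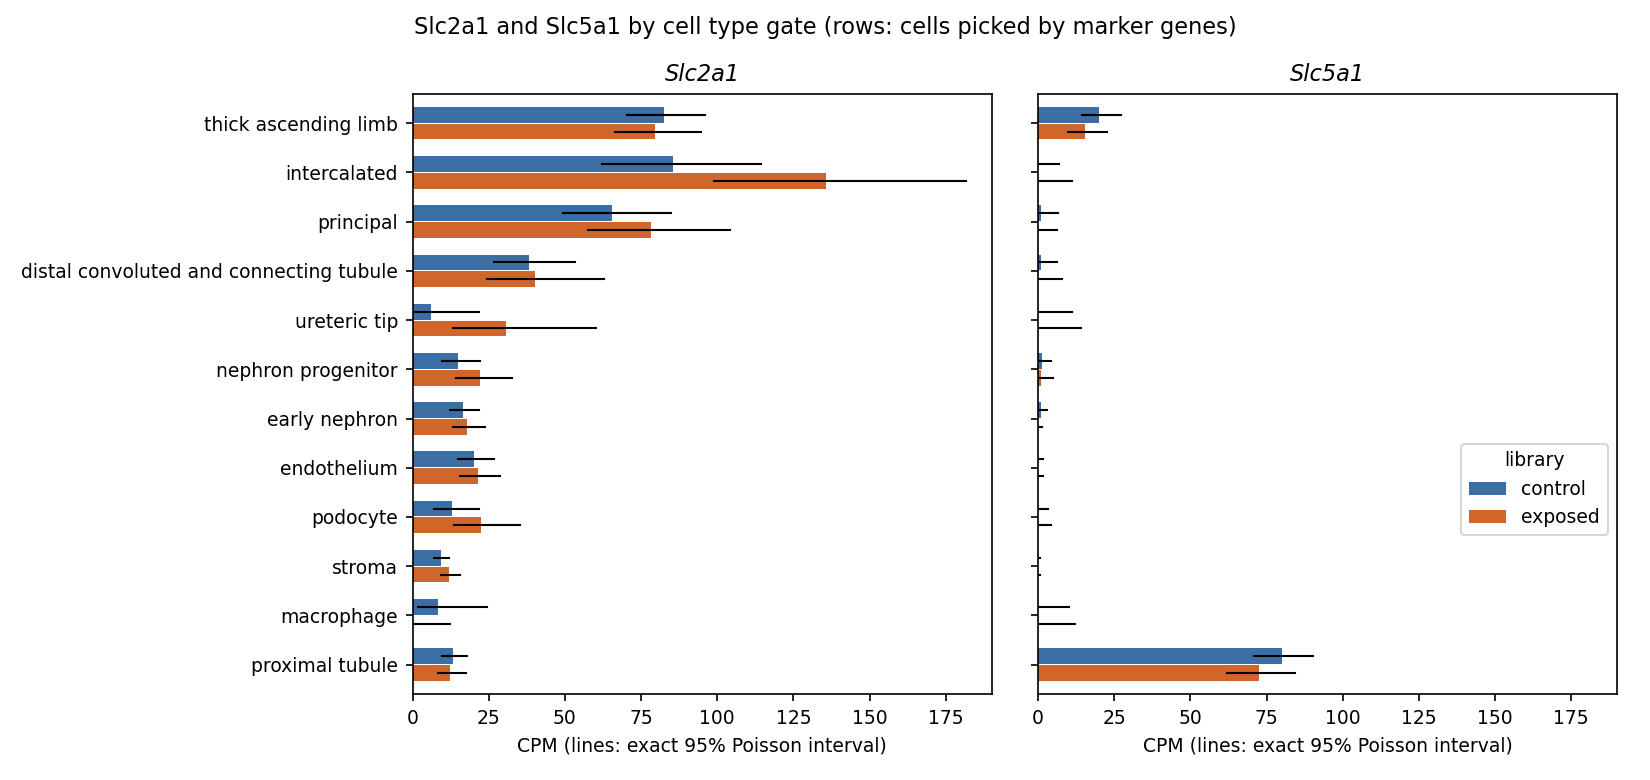
CPM of Slc2a1 (left) and Slc5a1 (right) in cells with at least 2 of 3 markers of 1 cell type (proximal: at least 3 of 4), as bars for each library with exact 95% Poisson intervals. Slc2a1 is highest in the thick ascending limb, intercalated and principal gates, and Slc5a1 in the proximal gate (80.2 and 72.6 CPM) followed by the thick ascending limb.

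Across the 20 clusters of both libraries, the 6 proximal genes ran alike and Slc2a1 did not. Likeness was the Pearson correlation of log2(CPM + 10), a description over clusters that share libraries, depth and the split between proximal and other cells. Slc2a2 was closest to Slc23a1, a vitamin C transporter (r = 0.997), Slc27a2 and Dqx1, and G6pc to Acsm1 (0.998), Hgd and Cdhr2. Pck1 was closest to Acsm2 (0.993), Slc2a2 (0.991) and Slc47a1. Fbp1 was closest to Defb19 (0.993), Gsta2 and Ttr. Among the genes closest to Slc5a1 were Slc1a1, a glutamate transporter (0.988), and Fggy (0.985).

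Slc5a2 was closest to Miox (0.955), which also served to pick the gate, Prodh2 and Agxt2. Slc2a1 was closest to Ankrd9 (0.948), Ermp1 and Nudt4, and its r with the other 6 lay between -0.45 and -0.07.

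The libraries were then compared within the proximal gate, the comparison the design implies. Slc5a2 was higher in the exposed gate, Fbp1, G6pc and Pck1 were lower, and Slc5a1, Slc2a2 and Slc2a1 did not differ by more than counting error. A ratio of at least 1.5 upward was reached by 1 of the 7 genes, Slc5a2, and by 3.62% of the 7517 genes with at least 50 UMIs in the gate. A ratio at least 1.5 times downward was reached by 1 of 7, Fbp1, against 2.18% of all genes. The ratio interval lay above 1 for 1 of 7 genes, against 12.5% of all, and below 1 for 3 of 7, against 10.3%. The 1.5-fold rule and these counts describe the 2 libraries and are no test.

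Slc5a2 was at 34.7 CPM (140 UMIs in 58 cells) in the control gate and 57.1 (154 UMIs in 67 cells) in the exposed gate, a ratio of 1.64 (1.30 to 2.08). Within the main proximal cluster it was at 36.9 and 62.0 CPM, a ratio of 1.68 (1.3 to 2.24), and in the high-mitochondrial cluster at 74.4 and 146, a ratio of 1.96 (1.16 to 3.44). The exposed value was thus the higher in both proximal clusters. After weighting both gates to 1 common mix of clusters, the ratio was 1.75.

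The mitochondrial share moved with Slc5a2. In gate cells over 25% mitochondrial UMIs Slc5a2 was at 79.1 CPM in control cells and 161 in exposed cells, a ratio of 2.04 (1.48 to 2.82). In cells up to 25% it was at 22.2 and 28.0 CPM, a ratio of 1.26 (0.874 to 1.80) whose interval holds 1. Cells of the main proximal cluster up to 25% gave 25.7 and 40.3 CPM, a ratio of 1.57 (1.07 to 2.30). The level therefore differed with the mitochondrial share in each library, and the part of that share in the ratio was not tested beyond these values. Few cells carried the gene: the 5 highest held 30.7% of its control gate UMIs and 22.7% of its exposed ones, and the ratio without them was 1.85.

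At a depth thinned to 2000 UMIs, 5.48% of 602 control gate cells (3.80 to 7.61) and 10.7% of 354 exposed gate cells (7.71 to 14.4) held a UMI of Slc5a2. Gate cells under that depth, the rest of the 673 and 387, were left out. The difference was 5.25 percentage points (Newcombe interval 1.73 to 9.22), and 1.94 points (-1.27 to 6.03) in cells up to 25% mitochondrial UMIs. Without thinning the shares were 8.62% and 17.3%. In the endothelium-like clusters, which should lack the gene and have median depths of 2559.5 and 3201 UMIs against 4855 and 5077 in the gate, 0 of 459 and 0 of 405 thinned cells held one, which allows shares of up to 0.654% and 0.741%.

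Slc5a1 was at 74.1 CPM (299 UMIs) in the control gate and 65.2 (176 UMIs) in the exposed gate, a ratio of 0.880 (0.726 to 1.06). Main proximal cells gave 0.933 (0.744 to 1.16). Its thinned share of cells was 12.6% (10.1 to 15.5) and 11% (7.95 to 14.8), and 25.3% and 22.5% without thinning. In the thinned endothelium 0 cells of either library held it.

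Slc2a2 was at 182 CPM (735 UMIs) and 172 (465 UMIs), a ratio of 0.946 (0.840 to 1.06). In the main proximal cluster the ratio was 1.05 (0.919 to 1.21), so the 2 scopes lie on either side of 1 and both intervals hold 1. The thinned share was 27.6% and 23.7%, a difference of -3.85 points (-9.40 to 1.97), and 50.5% and 48.3% without thinning. The thinned endothelium held it in 0.218% of control cells and 0 exposed cells. Slc2a1 was at 14.9 CPM (60 UMIs) and 11.1 (30 UMIs), a ratio of 0.747 (0.465 to 1.18), and in main proximal cells at 13.2 and 16.0, a ratio of 1.21 (0.692 to 2.08). Its thinned share of gate cells, 2.49% and 2.26% (8.32% and 6.2% without thinning), was below that in the endothelium, 3.70% and 5.93%.

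**Figure D4:**
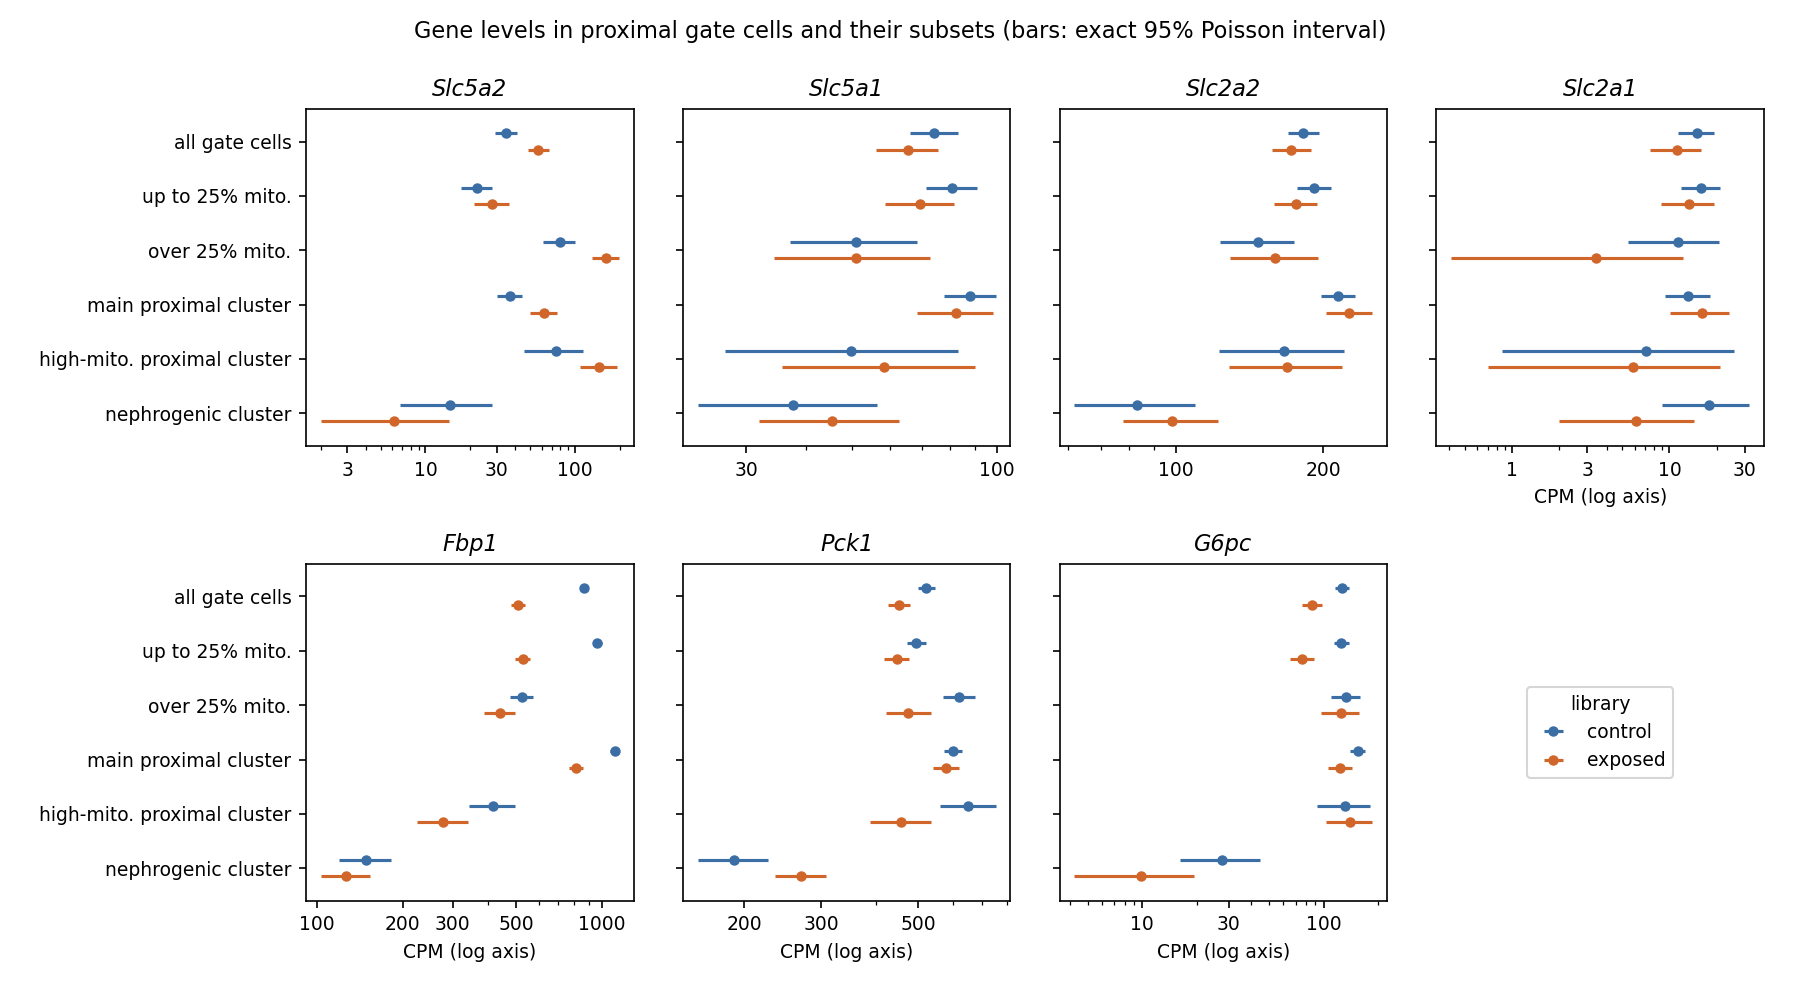
CPM of each gene (log axis) in all proximal gate cells and in 5 subsets of them, for the control and the exposed library, with exact 95% Poisson intervals. Slc5a2 lies higher in exposed cells in all rows but the nephrogenic cluster, and Fbp1 lies lower in each row.

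Fbp1 had the lowest gate ratio of the 7. It was at 868 CPM (3503 UMIs in 510 cells) in the control gate and 508 (1372 UMIs in 268 cells) in the exposed gate, a ratio of 0.585 (0.550 to 0.623). In the main proximal cluster the level was 1110 and 812 CPM, a ratio of 0.731 (0.683 to 0.782), and in the high-mitochondrial cluster 414 and 277, a ratio of 0.668 (0.504 to 0.884). Within cluster 2 it was 0.852 (0.636 to 1.14). With the same mix of clusters in both gates the ratio was 0.733.

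Fbp1 in gate cells up to 25% mitochondrial UMIs was at 965 and 528 CPM, a ratio of 0.547 (0.510 to 0.586), and in cells over 25% at 523 and 438, a ratio of 0.837 (0.716 to 0.977). On the nuclear scale the latter was 0.943 (0.806 to 1.1), whose interval holds 1. All of these values lay below 1. The thinned share of cells with Fbp1 was 64.3% (60.3 to 68.1) and 50.6% (45.2 to 55.9), a difference of -13.7 points (-20.1 to -7.24), and 75.8% and 69.3% without thinning. Its share in the thinned endothelium was 0.871% and 0.247%.

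G6pc was at 127 CPM (512 UMIs in 220 cells) in the control gate and 86.7 (234 UMIs in 101 cells) in the exposed gate, a ratio of 0.683 (0.583 to 0.799). The main proximal cluster gave 154 and 123 CPM, a ratio of 0.798 (0.667 to 0.952), and the high-mitochondrial cluster 131 and 140, a ratio of 1.07 (0.681 to 1.69). In cluster 2 there were 17 and 8 UMIs of it. The G6pc ratio depended on a few cells and on depth: the 5 highest cells held 27.8% of its exposed gate UMIs, the ratio with every cell weighted the same was 0.911, and that of cells thinned to 2000 UMIs was 0.856 (0.632 to 1.15), which holds 1. Thinned shares were 16.3% and 13.8% (32.7% and 26.1% without thinning), and 0 cells of the thinned endothelium held it.

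Pck1 was at 523 CPM (2109 UMIs in 476 cells) and 453 (1222 UMIs in 259 cells), a ratio of 0.866 (0.807 to 0.930). In the main proximal cluster it was at 601 and 580 CPM, a ratio of 0.966 (0.888 to 1.05). In the high-mitochondrial cluster the ratio was 0.702 (0.564 to 0.874), and in cluster 2 it was 1.43 (1.13 to 1.80), at 189 and 270 CPM. Pck1 was thus lower, level within counting error, or higher in exposed cells according to the cluster. The thinned gate ratio was 0.968 (0.849 to 1.1). Thinned shares were 50.8% and 50.3% (70.7% and 66.9% without thinning), against 0.871% and 0.494% in the endothelium.

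In gate cells up to 25% mitochondrial UMIs the same enzymes stood below 1. G6pc was at 125 and 76.3 CPM, a ratio of 0.608 (0.503 to 0.733), and Pck1 at 495 and 446, a ratio of 0.901 (0.830 to 0.978). In cells of the main proximal cluster up to 25%, the Fbp1 ratio was 0.705 (0.656 to 0.758) and the G6pc ratio 0.802 (0.660 to 0.970). The Pck1 ratio in those cells was 1.02 (0.933 to 1.12), so it was not below 1. In all gate cells up to 25%, 0 of the 7 genes were at least 1.5-fold higher, against 4.74% of 7366 genes. In the same cells 2 of 7 were at least 1.5-fold lower, against 2.61%. The interval lay below 1 for 3 of 7, against 9.61%, and above 1 for 0 of 7, against 14.2%.

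**Figure D5:**
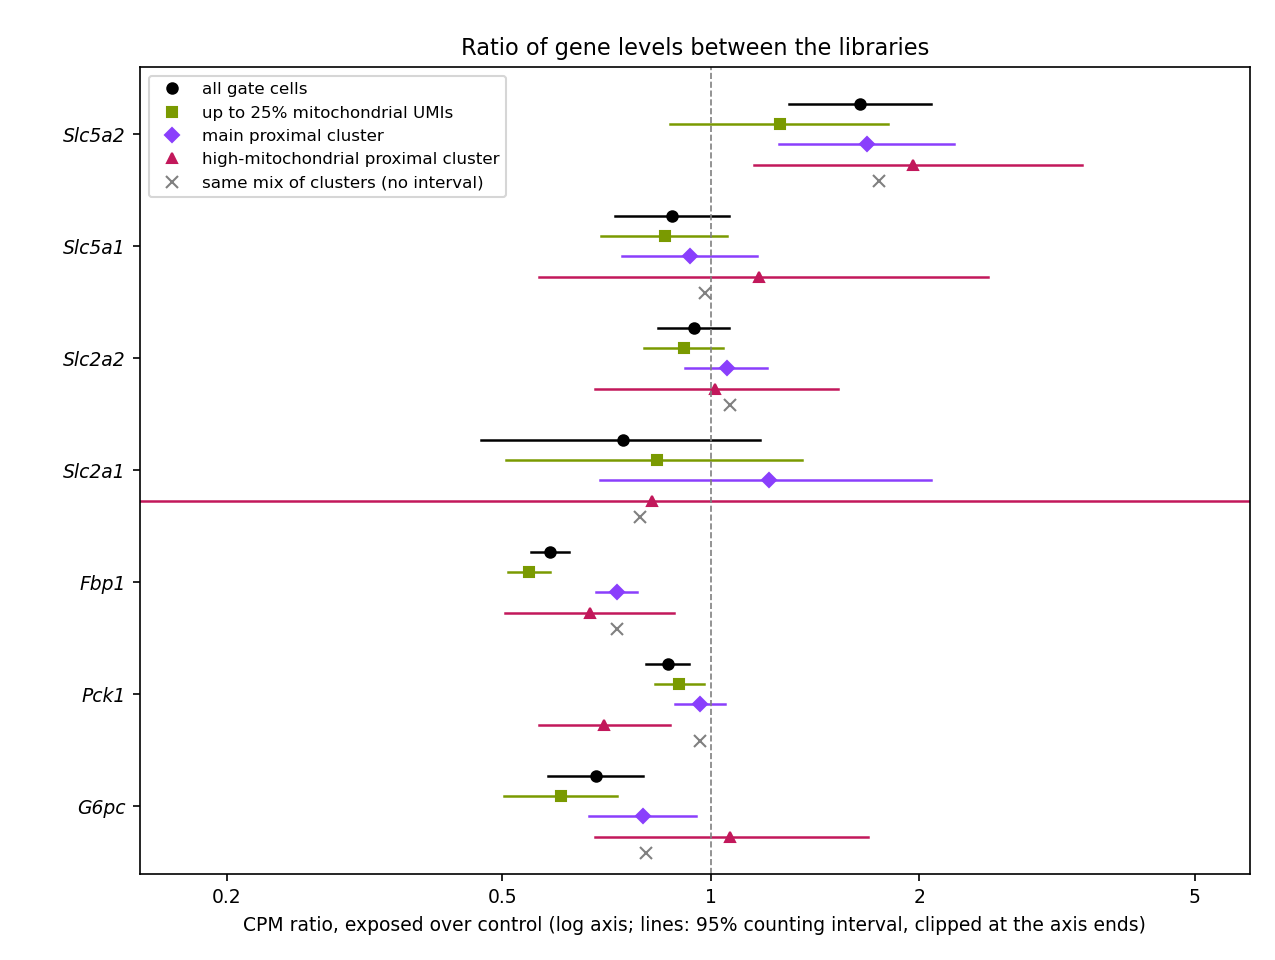
Ratio of CPM, exposed over control (log axis), for each gene in all gate cells and in subsets of them, with 95% counting intervals. The subsets are gate cells up to 25% mitochondrial UMIs and gate cells of each proximal cluster. Crosses have both gates weighted to the same mix of clusters. Fbp1 lies below 1 at each point, Slc5a2 above 1, and Pck1 and G6pc move toward 1 in the main proximal cluster.

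Other genes of glucose handling were read from lists chosen by function. Of 7 other glucose and hexose transporters with at least 50 gate UMIs, 0 passed 1.5-fold in either direction (over all genes 2.18% did downward and 3.62% upward), and 6 had a ratio below 1, with a median log2 ratio of -0.22 against 0.04 over all 7517 genes. The furthest were Slc5a8, a monocarboxylate transporter (179 and 124 CPM, ratio 0.695, 0.609 to 0.792), Slc5a9, a mannose and glucose cotransporter (0.707, 0.541 to 0.917), and Slc37a4, which moves glucose 6-phosphate into the endoplasmic reticulum (0.831, 0.733 to 0.940). In the common mix of clusters the median was -0.09, against 0.04 for all genes.

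Of 21 other enzymes of gluconeogenesis and hexose phosphates, 2 were at least 1.5-fold lower and 1 higher, against 2.18% and 3.62% of all genes. The median log2 ratio was -0.14, against 0.04 over all genes. Pcx, which makes oxaloacetate from pyruvate, was at 284 and 185 CPM (ratio 0.653, 0.587 to 0.726). Khk, the fructose kinase, was at 203 and 125 (0.618, 0.543 to 0.702). Pck2, the mitochondrial relative of Pck1, was at 15.4 and 25.2 CPM, a ratio of 1.64 (1.14 to 2.35). With the same mix of clusters Pcx stood at 0.797, Khk at 0.709 and Pck2 at 1.63. The list's median was then 0.06, against 0.04 over all genes.

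Of 10 genes that supply glutamine and lactate, 1 was at least 1.5-fold lower, Slc6a19 (47.1 and 28.5 CPM, ratio 0.606, 0.459 to 0.793), and 0 were higher. Of 13 regulators, 1 was lower, Ppargc1a, a coactivator of mitochondrial and gluconeogenic genes (64.2 and 41.1 CPM, ratio 0.641, 0.508 to 0.803), and 0 were higher. Their median log2 ratios were -0.21 and -0.15, and 0.00 and -0.16 at the same mix of clusters, against 0.04 over all genes in both settings. Slc6a19 and Ppargc1a stood at 0.660 and 0.634 at the same mix. Over all 7517 genes, 2.18% were at least 1.5-fold lower and 3.62% higher.

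Of 13 early segment genes, 3 were at least 1.5-fold lower (Fbp1, Slc6a19 and Slc22a6 at 0.542, 0.492 to 0.596) and 1 higher (Slc5a2), with a median log2 ratio of -0.21. Of 10 late segment genes, 4 were at least 1.5-fold lower and 0 higher, against 2.18% and 3.62% of all genes, with a median of -0.47 against 0.04. The 4 were Slc7a13 (62.5 and 34.5 CPM, ratio 0.552), Slc22a30 (143 and 94.5, 0.662), Atp11a (59.2 and 38.2, 0.644) and Slc3a1 (162 and 105, 0.646). With the same mix of clusters the medians were 0.03 and -0.28, against 0.04 over all genes. Of the late genes 0 then passed 1.5-fold, against 165 genes downward and 166 upward of all 7517. Both lists include genes of the 7 (Slc5a2, Slc2a2, Pck1 and Fbp1 early, Slc5a1 and Slc2a1 late).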

How the data were processed

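Whole-kidney cells of 1 control and 1 exposed library were sequenced. Per the submitters' processing notes, Cell Ranger 2.2.0 and build mm10 were named, without their role. UMI counts per gene and cell were deposited without normalization. The authors also deposited, per the file headers, the percent of mitochondrial UMIs, a doublet score and a cluster number per cell. Sources used here do not give how cells, genes and clusters were chosen. No cell was removed; cells with a doublet score over 1 were left out only as an alternative.

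Counts of the 8930 shared genes (99.4% of UMIs in each library) were summed over cells and divided by the cells' total (CPM). Ratios carry exact conditional binomial intervals, CPM exact Poisson and shares Clopper-Pearson intervals, all at 95%. Sums of cells are single values: no p-value was computed. A count of 0 allows up to 3 counts. Cells were thinned to 2000 UMIs by seeded random draws. Clusters were named "-like" from at least 3 detected markers (in at least 10% of cells, at least 2 times the level elsewhere). Ratios over all genes needed 50 UMIs over both libraries, and the ratio interval was tested on simulated data. Named are the 7 genes, the 3 genes most like each over clusters (1 is not reported here), and from each list the genes past 1.5-fold or, with none, the 3 with the largest log2 ratios. Cells of other types were picked by at least 2 of 3 markers of 1 type, without cells that met another type's markers or the proximal gate; these 11 gates were chosen after seeing the data. The same-mix weights were the mean of both libraries' UMI shares of each cluster kind. The genes, lists and rules were chosen with earlier results of these data known. Python 3.11.15, numpy 2.4.6, scipy 1.17.1 and pandas 2.3.3 were used.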

Additional observations from a re-analysis of the deposited data

How the results depend on the processing

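No paired analysis was possible because each group is 1 library. Of the alternative values for the 7 genes and the list counts, 127 stayed within the counting interval and 37 moved past it. For counts of genes the limit was 1.5 times. For other named genes 151 stayed and 18 moved. None of the 4 gate ratios whose interval leaves out 1 crossed 1 in these alternatives. Single clusters of the gate are not counted there, and in them some did cross. Pck1 was at 1.43 (1.13 to 1.80) in cluster 2 and G6pc at 1.07 (0.681 to 1.69) in the high-mitochondrial cluster. Slc5a2 was at 0.418 (0.110 to 1.39) in cluster 2, on 9 and 5 UMIs. Without cells over 25% mitochondrial UMIs the Slc5a2 ratio was 1.26 and the Fbp1 ratio 0.547. CPM in the highest clusters then became 402 and 194 for Slc5a2, 4024 for Pck1 and 194 for G6pc in the high-mitochondrial clusters, where 2 control and 7 exposed cells remained, and 98.4 for Slc2a1 in control cluster 5. Fbp1 was at 0.628 with all 4 gate markers, 0.685 in the proximal tubule-like clusters and 0.733 with the same mix of clusters. G6pc was at 0.839 in those clusters, 0.856 thinned, 0.911 with cells weighted equally, 0.806 with the same mix and 0.573 without its 5 highest cells. Pck1 was at 0.968 thinned and 0.966 with the same mix, and Slc2a2 crossed 1, to 1.07, with the same mix, as did Slc5a1 and Slc2a1 under other settings (up to 1.04 and 1.07), all 3 with main intervals that hold 1. Without mitochondrially encoded genes in the total, an alternative chosen after seeing the data, CPM in the cluster where each gene was highest by CPM was 200.5 and 398 for Slc5a2, 106 for Slc5a1 in control cells, 245 and 257 for Slc2a2, 115 and 92 for Slc2a1, 1265 and 938 for Fbp1, 1568 and 674 for Pck1, and 173 and 339 for G6pc. The Fbp1 share difference was -6.53 points unthinned, and its CPM in control cluster 6 was 1128 without cells of high doublet score. Of the genes on the 6 lists that are not among the 7, 1 was at least 1.5-fold higher and 9 lower. Over all 7517 genes the shares were 3.62% and 2.18%. The higher count on the lists was 2 with a minimum of 20 UMIs. The lower count was 18 at the looser planned fold, and both were 0 at 2-fold. Shares over all genes at these other settings are not given here. The cause of these shifts was not tested. The same-mix weighting and the exclusion of cells in another marker gate or in clusters led by mitochondrial genes were chosen after seeing the data. Depth limits Slc2a1 in the gate, with 60 and 30 UMIs.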
